A study of Mus musculus with 207 samples.

Results

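The genes described here digest dietary sugars, carry them across the intestinal wall and start the use of fructose. They are Sis, Lct, Treh, Slc5a1, Slc5a4a, Slc5a4b, Slc2a5, Slc2a2 and Khk. They were chosen by name, so that their 9 rows were read out of the 55536 genes in the deposited count tables of jejunum and liver. All 9 were measured well enough to be tested in jejunum and 5 of the 9 in liver.

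The study fed C57BL/6 mice diets that combined a protein source with a fat level, and by its title it was about whether protein kind and quantity change the effect of fat in the diet on weight and on how tissues share nutrients. WPI (whey protein isolate) and CAS (casein) were each given at 3 fat levels named FAT-20, FAT-40 and FAT-55, with a protein level labelled 30 in all 6 groups, and the labels give no unit for either level. Whole-tissue RNA was sequenced from jejunum and liver of the same 70 mice, going by the animal identifiers in the labels. The numbers in the library titles run in parallel between jejunum and liver except for a CAS FAT-20 mouse, whose pairing is less certain. There were 12 WPI mice at FAT-20, 12 at FAT-40 and 12 at FAT-55, and 11 CAS mice at FAT-20, 12 at FAT-40 and 11 at FAT-55. Sex, age and processing dates are not given in the sources used here. What each diet held in place of fat, and whether any held sucrose, lactose or fructose, is likewise not given there.

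Brush border enzymes on the villus split disaccharides and starch fragments into single sugars, and transporters in the same cells take these sugars up. Glucose and galactose enter with sodium through SGLT1, fructose enters through GLUT5, and sugars leave toward the blood largely through GLUT2. Fructose is then trapped by ketohexokinase, in the small intestine and in the liver. Transcripts of several of these genes are known to follow the sugar content of the diet in rodents.

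Libraries held 17502377 to 23808051 reads on genes in jejunum and 21000799 to 41024101 reads on genes in liver. Levels are given as counts-per-million values (CPM) scaled by the TMM method, and changes as log2 fold changes with standard errors from edgeR's quasi-likelihood test on the counts, with Benjamini-Hochberg adjustment across every gene tested in the tissue for that comparison. A gene is called where that adjusted p is under 0.05. There were 12 comparisons per tissue, and the p-values are not adjusted for this number. Mouse identifiers share stems within a diet, mostly 3 mice to a stem, and the labels do not explain the stems. If mice of a stem share a cage or litter, the p-values are too small. The tissue labels held against marker genes: hepatocyte markers summed to 60770 to 137700 CPM in liver, where Alb averaged 71740 CPM, while Alb averaged 0.474 CPM in jejunum. Exocrine pancreas markers reached a sum of 1069 CPM in a WPI FAT-40 liver library (group median 0.0177 CPM). In jejunum their highest sum was 29.55 CPM, in a CAS FAT-55 library (group median 0.1635 CPM). In bulk tissue, fewer cells of a type and less RNA per cell cannot be told apart.

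Levels of different genes were compared per kb of exon. In jejunum Slc5a1 averaged 814 CPM per kb and Sis 800.5 CPM per kb over 70 libraries. Lct followed at 388, Treh at 282, Khk at 218 and Slc2a2 at 95.2 CPM per kb. Slc5a4b at 64.5, Slc2a5 at 60.6 and Slc5a4a at 48.2 CPM per kb were the lowest. The highest and lowest of the 9 thus lay within a range of 48.2 to 814 CPM per kb in jejunum. The liver held a much shorter list. Khk averaged 152 CPM per kb there and Slc2a2 84.6, while Slc2a5 averaged 2.97, Treh 1.24 and Slc5a1 0.382 CPM per kb.

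**Figure D1:**
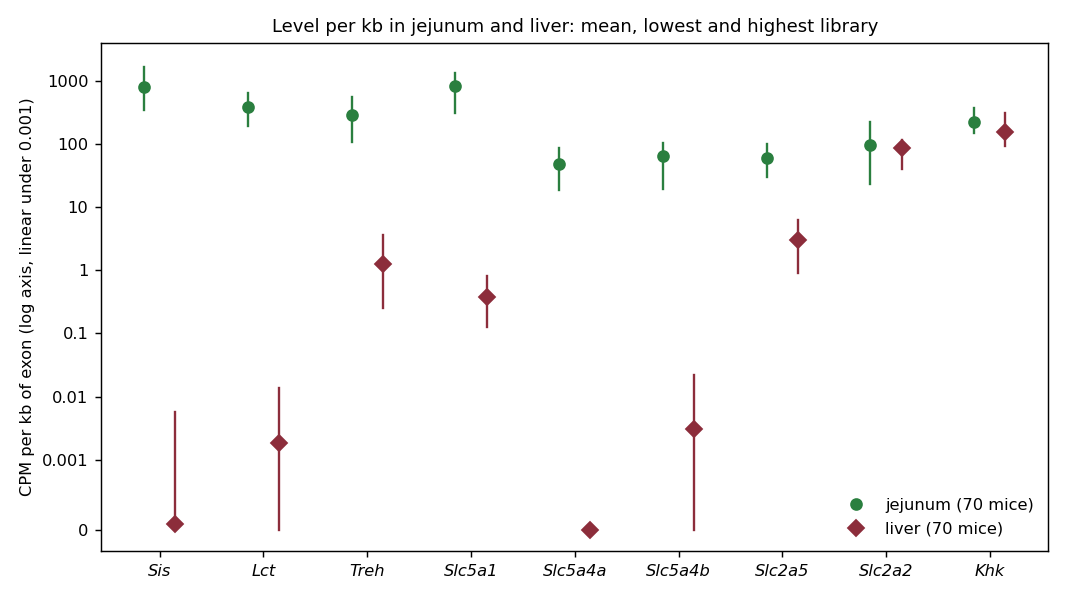
Mean CPM per kb of exon of each gene in jejunum and in liver (points), with the lowest and highest of 70 libraries as lines; the axis is logarithmic above 0.001 and linear below it. Slc5a1 and Sis lead in jejunum at 814 and 800.5 CPM per kb, and Khk and Slc2a2 lead in liver at 152 and 84.6 CPM per kb.

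The sequences shown are the 250 bases before the RefSeq start (assembly GRCm38.p6, gene strand, 5′ to 3′) of the genes called on both proteins at FAT-55 against FAT-20 in jejunum, namely Sis, Slc5a1, Treh and Slc5a4b, and of Slc5a4a, the close relative of Slc5a4b that was never called. They stand at chr3:72967864-72968113 (minus strand) for Sis, chr5:33103969-33104218 (plus strand) for Slc5a1, chr9:44672983-44673232 (plus strand) for Treh, chr10:76111019-76111268 (minus strand) for Slc5a4b and chr10:76147201-76147450 (plus strand) for Slc5a4a. Capitals mark matches to 5 short motifs searched on both strands, a match on the other strand being printed as its reverse complement.
Sis: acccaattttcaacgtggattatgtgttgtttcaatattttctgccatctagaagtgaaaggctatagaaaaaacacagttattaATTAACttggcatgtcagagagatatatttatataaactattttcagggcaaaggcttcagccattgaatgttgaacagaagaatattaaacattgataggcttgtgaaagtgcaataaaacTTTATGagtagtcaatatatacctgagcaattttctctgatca
Slc5a1: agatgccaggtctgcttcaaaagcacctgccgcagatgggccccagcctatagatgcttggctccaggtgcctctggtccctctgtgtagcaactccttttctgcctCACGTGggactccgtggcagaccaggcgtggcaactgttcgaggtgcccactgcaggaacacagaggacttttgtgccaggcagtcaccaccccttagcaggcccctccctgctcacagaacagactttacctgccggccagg
Treh: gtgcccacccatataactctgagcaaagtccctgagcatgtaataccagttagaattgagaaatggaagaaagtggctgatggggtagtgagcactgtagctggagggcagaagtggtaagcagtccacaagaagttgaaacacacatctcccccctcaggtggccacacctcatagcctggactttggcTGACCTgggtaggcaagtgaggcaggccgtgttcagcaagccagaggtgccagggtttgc
Slc5a4b: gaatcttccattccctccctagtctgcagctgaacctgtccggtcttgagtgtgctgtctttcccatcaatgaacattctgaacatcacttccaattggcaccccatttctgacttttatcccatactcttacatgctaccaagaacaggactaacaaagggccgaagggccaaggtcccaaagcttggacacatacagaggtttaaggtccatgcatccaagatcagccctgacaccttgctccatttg
Slc5a4a: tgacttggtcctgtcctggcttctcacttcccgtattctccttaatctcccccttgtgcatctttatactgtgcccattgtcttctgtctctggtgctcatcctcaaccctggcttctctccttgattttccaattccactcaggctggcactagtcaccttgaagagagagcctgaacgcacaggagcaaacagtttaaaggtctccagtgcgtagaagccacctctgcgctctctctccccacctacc
The motifs were chosen after the sequences had been seen, and none of them overlaps another in letters. GTTAAT, a part of HNF1 sites, stood 165 bases before the Sis start on the other strand, and 6.43% of 32851 mouse windows of the same length held it. TTTATG, a CDX site, stood 43 bases before the Sis start on the gene strand, and 10.8% of windows held it. HNF1 and CDX proteins are known regulators of the Sis promoter. CACGTG, the core of an E-box, stood 143 bases before the Slc5a1 start, and 6.02% of windows held it. AGGTCA, a unit of nuclear receptor sites, stood 60 bases before the Treh start on the other strand, and 14.0% of windows held it. AGATAA, the motif of factors such as Gata4, was in none of the sequences shown and in 9.99% of windows. Slc5a4b and Slc5a4a held none of the 5 motifs, and neither did Slc2a5. The window of Khk, which was not called for fat in jejunum, held both the E-box core and the HNF1 motif, 71 and 60 bases before its start. The Lct window held the Gata4 motif at 2 places, 101 and 90 bases before its start, and the CDX motif at 31 bases. The Slc2a2 window held the nuclear receptor unit 21 bases before its start. Bases made of G or C were 31.6% of the Sis window, 60.0% of the Slc5a1 window, 53.2% of the Treh window, 48.0% of the Slc5a4b window and 51.6% of the Slc5a4a window.

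In the jejunum, some of the genes fell and others rose with dietary fat. At FAT-55 against FAT-20, Sis and Slc5a1 fell on both proteins, while Treh and Slc5a4b rose on both. Slc2a2 fell on WPI and Lct rose on CAS. Slc2a5, Slc5a4a and Khk were not called for fat on either protein. Of the 9 genes, 5 were called on WPI (2 higher and 3 lower), where 30.8% of all 16992 tested genes were called (14.2% higher and 16.6% lower). Another count of 5 was called on CAS (3 higher and 2 lower), where 27.7% were called (14.4% higher and 13.3% lower). With this much of the transcriptome called, the number of genes called among the 9 is not in itself a result.

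**Figure D2:**
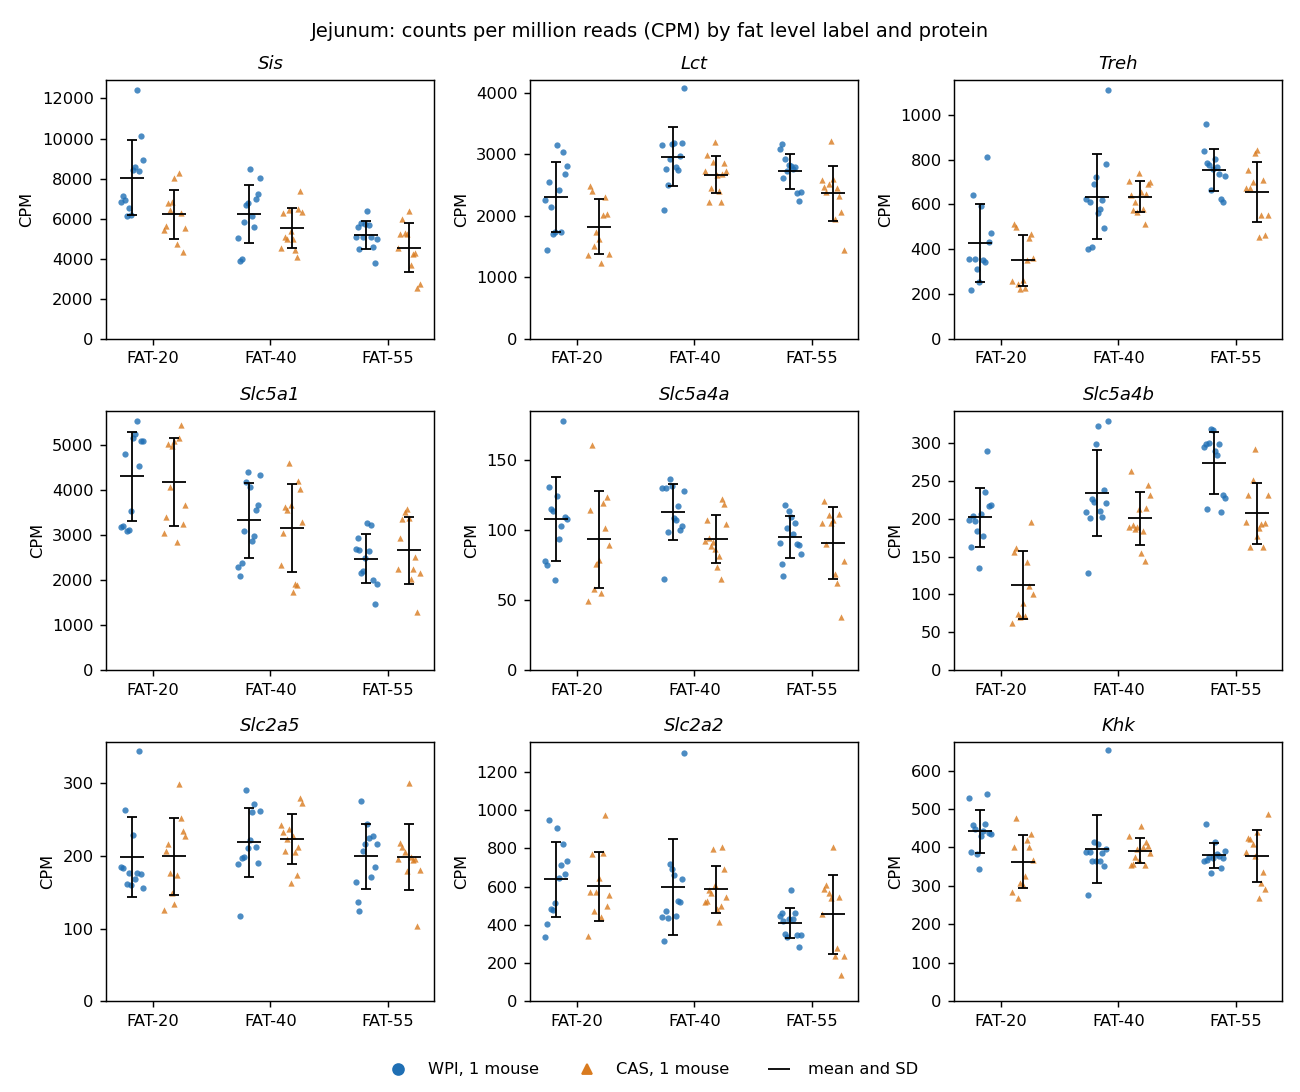
CPM of each of the 9 genes in every jejunum library by fat level (points: blue circles WPI, orange triangles CAS; lines: mean and SD of each group). Slc5a1 and Sis step down and Treh and Slc5a4b step up with fat, while the groups of Slc2a5 lie over one another between 103 and 344 CPM.

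Sis (ENSMUSG00000027790, chromosome 3, 72888557 to 72967863, minus strand, GRCm38) encodes sucrase-isomaltase, which splits sucrose and starch fragments. On WPI it had 6114 to 12440 CPM (median 7762) at FAT-20, 3860 to 8478 CPM (6414) at FAT-40 and 3795 to 6391 CPM (5098) at FAT-55. On CAS it had 4348 to 8283 CPM (6283) at FAT-20, 4089 to 7356 CPM (5246) at FAT-40 and 2544 to 6374 CPM (4543) at FAT-55. All 12 WPI libraries at FAT-55 lay below the WPI FAT-20 median, with a narrow overlap of the groups, and 10 of 11 CAS libraries at FAT-55 lay below the CAS FAT-20 median. Sis fell by a log2 change of 0.64 ± 0.13 on WPI (adjusted p = 0.00011, edgeR) and by 0.45 ± 0.13 on CAS (adjusted p = 0.0087). It had already fallen at FAT-40 on WPI (log2 −0.37 ± 0.13, adjusted p = 0.024). On CAS the FAT-40 log2 change was −0.17 (adjusted p = 0.35). Without the WPI FAT-20 replicates 1 and 9, which held the most of the ileal gene Fabp6, the WPI FAT-40 log2 change was −0.33 (adjusted p = 0.06).

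Lct (ENSMUSG00000026354, chromosome 1, 128284756 to 128328318, minus strand) encodes lactase, the enzyme for milk sugar. The WPI libraries had 1437 to 3150 CPM (median 2341) at FAT-20, 2101 to 4072 CPM (2945) at FAT-40 and 2243 to 3172 CPM (2779) at FAT-55. The CAS libraries had 1229 to 2479 CPM (1732) at FAT-20, 2217 to 3201 CPM (2706) at FAT-40 and 1448 to 3218 CPM (2459) at FAT-55. The FAT-40 group had the highest median on either protein, and its CAS libraries overlapped those at FAT-20 only between 2217 and 2479 CPM. Lct rose at FAT-40 against FAT-20 by a log2 change of 0.36 ± 0.11 on WPI (adjusted p = 0.011) and 0.55 ± 0.11 on CAS (adjusted p = 3e-04, edgeR). At FAT-55 it rose on CAS (log2 0.38 ± 0.12, adjusted p = 0.01), and on WPI its log2 change was 0.24 (adjusted p = 0.084).

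Treh (ENSMUSG00000032098, chromosome 9, 44673233 to 44686305, plus strand) encodes trehalase, which splits trehalose, a sugar of mushrooms and insects. Levels on WPI were 216 to 810.4 CPM (median 357) at FAT-20, 399 to 1112 CPM (616) at FAT-40 and 609 to 958 CPM (763) at FAT-55. Levels on CAS were 223 to 511 CPM (352) at FAT-20, 511 to 739 CPM (644) at FAT-40 and 455 to 843 CPM (674) at FAT-55. Every library at FAT-40 and FAT-55 lay above the FAT-20 median of its protein, and on CAS the FAT-40 and FAT-20 groups did not overlap (lowest 511.2 against highest 510.9 CPM). Treh rose 1.76-fold on WPI at FAT-55 (log2 0.82 ± 0.15, adjusted p = 3.3e-05) and 1.87-fold on CAS (0.90 ± 0.16, adjusted p = 2.5e-05). At FAT-40 the log2 rise was 0.57 ± 0.15 on WPI (adjusted p = 0.0041) and 0.86 ± 0.16 on CAS (adjusted p = 6.5e-05). The 2 exon bases that Treh shares with Phldb1 are too few to bear on its counts.

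Slc5a1 (ENSMUSG00000011034, chromosome 5, 33104219 to 33162870, plus strand) encodes SGLT1, the sodium-coupled glucose and galactose transporter of the brush border. In WPI mice it had 3084 to 5534 CPM (median 4668) at FAT-20, 2089 to 4392 CPM (3311) at FAT-40 and 1455 to 3253 CPM (2563) at FAT-55. In CAS mice it had 2837 to 5427 CPM (4065) at FAT-20, 1740 to 4587 CPM (3414) at FAT-40 and 1284 to 3578 CPM (2509) at FAT-55. Each of the 12 WPI and 11 CAS libraries at FAT-55 lay below the FAT-20 median of its protein. Slc5a1 stood at 0.574 of its FAT-20 level on WPI (log2 −0.80 ± 0.16, adjusted p = 6.9e-05) and at 0.636 of it on CAS (−0.65 ± 0.16, adjusted p = 0.002). The FAT-40 changes lay in between and were not called in the main edgeR fit (log2 −0.37, adjusted p = 0.068 on WPI, and −0.41, adjusted p = 0.051 on CAS). With a score of the epithelial markers as covariate both were called. The CAS change was also called by DESeq2 and by edgeR without WPI FAT-20 replicates 1 and 9. In the other settings tried, neither was called. The 2 proteins gave nearly the same levels, with a WPI against CAS log2 difference of 0.00 averaged over fat (95% interval −0.17 to 0.18).

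Much of the spread of Slc5a1 within a diet lay between identifier stems. Stems accounted for 69.7% of the within-diet spread of log2 CPM of Slc5a1 in jejunum and for 64.8% of that of Sis, against a median of 34.8% over all genes with quartiles of 27.9% and 42.5%. The size of this is seen in single stems. The WPI FAT-20 stem with the highest Slc5a1 had 5154 to 5534 CPM in its 3 mice and the one with the lowest had 3084 to 3537 CPM. On CAS at FAT-40, 3 mice of one stem had 1740 to 1898 CPM and 3 of another had 3540 to 4587 CPM. Not every stem was tight. On CAS at FAT-20, 3 mice of one stem had 2837 to 5427 CPM, the whole range of that diet. The other 7 genes ranged from 30% for Khk to 44.4% for Slc2a5. With counts summed over each stem, Slc5a1 at FAT-55 on WPI stayed called (log2 −0.78, adjusted p = 0.027), as did Sis (−0.62, adjusted p = 0.031). On CAS both lost the call, with adjusted p = 0.071 for Slc5a1 (−0.62) and 0.15 for Sis (−0.41). On WPI at FAT-40 the calls of Sis (−0.36, adjusted p = 0.23) and Lct (0.38, adjusted p = 0.07) were lost as well. The FAT-55 call of Slc5a4b on WPI was also lost.

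Slc5a4a and Slc5a4b encode the mouse pair of the SGLT3 branch, which in humans is a single protein described as a glucose sensor rather than a transporter. Slc5a4b lies on chromosome 10 at 76057494 to 76110961 (ENSMUSG00000020226, minus strand) and Slc5a4a at 76147451 to 76189265 (ENSMUSG00000020229, plus strand), 36.5 kb apart on opposite strands. Their coding sequences were 79.6% identical over 1963 aligned bases, with a longest shared run of 50 bases, and reads that matched several places were kept apart by the authors' counting. Reads that match both genes equally would then be in neither count, so the levels of the pair are less certain than those of the other genes.

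Slc5a4b on WPI had 136 to 290.5 CPM (median 201) at FAT-20, 129 to 329.6 CPM (222) at FAT-40 and 209 to 319 CPM (293) at FAT-55. On CAS it had 62.0 to 196 CPM (100.5) at FAT-20, 144 to 263 CPM (191) at FAT-40 and 163 to 293 CPM (195) at FAT-55. The CAS FAT-20 group stood lowest, although its highest library overlapped every other group except WPI at FAT-55. At FAT-55 Slc5a4b rose by a log2 change of 0.44 ± 0.14 on WPI (adjusted p = 0.011) and by 0.89 ± 0.14 on CAS (adjusted p = 6.9e-06), and at FAT-40 by 0.84 ± 0.14 on CAS (adjusted p = 2.3e-05, edgeR). Its FAT-40 log2 change on WPI was 0.21 (adjusted p = 0.25). With counts summed by identifier stem, the FAT-55 rise on WPI lost its call, while both rises on CAS kept theirs. The test of whether the response differed with protein gave a log2 difference of −0.63 ± 0.20 at FAT-40 (p = 0.0021 before adjustment, adjusted p = 0.25) and −0.45 at FAT-55 (adjusted p = 0.76), so a difference in response was not established.

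Slc5a4a had 64.4 to 178 CPM (median 108) on WPI at FAT-20, 64.9 to 136 CPM (113) at FAT-40 and 67.1 to 117 CPM (94.0) at FAT-55. The CAS libraries had 49.3 to 161 CPM (89.3) at FAT-20, 64.9 to 122 CPM (91.6) at FAT-40 and 38.0 to 121 CPM (105) at FAT-55. These groups lay over one another. The FAT-55 log2 change was −0.18 on WPI (95% interval −0.47 to 0.11) and −0.04 on CAS (−0.35 to 0.26), intervals that leave out the rise seen for Slc5a4b on either protein.

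Slc2a5 (ENSMUSG00000028976, chromosome 4, 150119283 to 150144169, plus strand) encodes GLUT5, the fructose transporter of the brush border. Its medians were 177, 212 and 212 CPM on WPI and 207, 225 and 196 CPM on CAS from FAT-20 to FAT-55, with libraries between 103 and 344 CPM. No group stood apart. At FAT-55 against FAT-20 the log2 change was 0.01 on WPI (95% interval −0.26 to 0.27) and −0.01 on CAS (−0.28 to 0.27), and between WPI and CAS averaged over fat it was −0.01 (−0.17 to 0.14). A change as large as the fall of Slc5a1 lay outside these intervals.

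Slc2a2 (ENSMUSG00000027690, chromosome 3, 28697903 to 28731359, plus strand) encodes GLUT2, the facilitative glucose and fructose transporter of enterocytes, hepatocytes and beta cells. On WPI it had 337 to 948 CPM (median 656) at FAT-20, 315 to 1297 CPM (523) at FAT-40 and 286 to 583 CPM (425) at FAT-55. Levels on CAS were 342 to 973 CPM (569) at FAT-20, 413 to 809 CPM (554) at FAT-40 and 135 to 808 CPM (539) at FAT-55. All 12 WPI libraries at FAT-55 lay below the WPI FAT-20 median, while the CAS groups overlapped over most of their range. Slc2a2 fell on WPI (log2 −0.64 ± 0.19, adjusted p = 0.0072, edgeR) and had a log2 change of −0.40 ± 0.20 on CAS (adjusted p = 0.12). The response of Slc2a2 on WPI was not shown to differ from that on CAS.

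Khk (ENSMUSG00000029162, chromosome 5, 30921431 to 30931248, plus strand) encodes ketohexokinase. The WPI libraries had 345 to 539 CPM (median 440.1) at FAT-20, 276 to 654 CPM (386) at FAT-40 and 333 to 460.3 CPM (374) at FAT-55. In CAS mice it had 269 to 476 CPM (369) at FAT-20, 353 to 457 CPM (391) at FAT-40 and 269 to 486 CPM (389) at FAT-55. Medians of the 6 groups lay between 369 and 440.1 CPM. The FAT-55 log2 change on WPI was −0.22 (adjusted p = 0.055, edgeR).

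**Figure D3:**
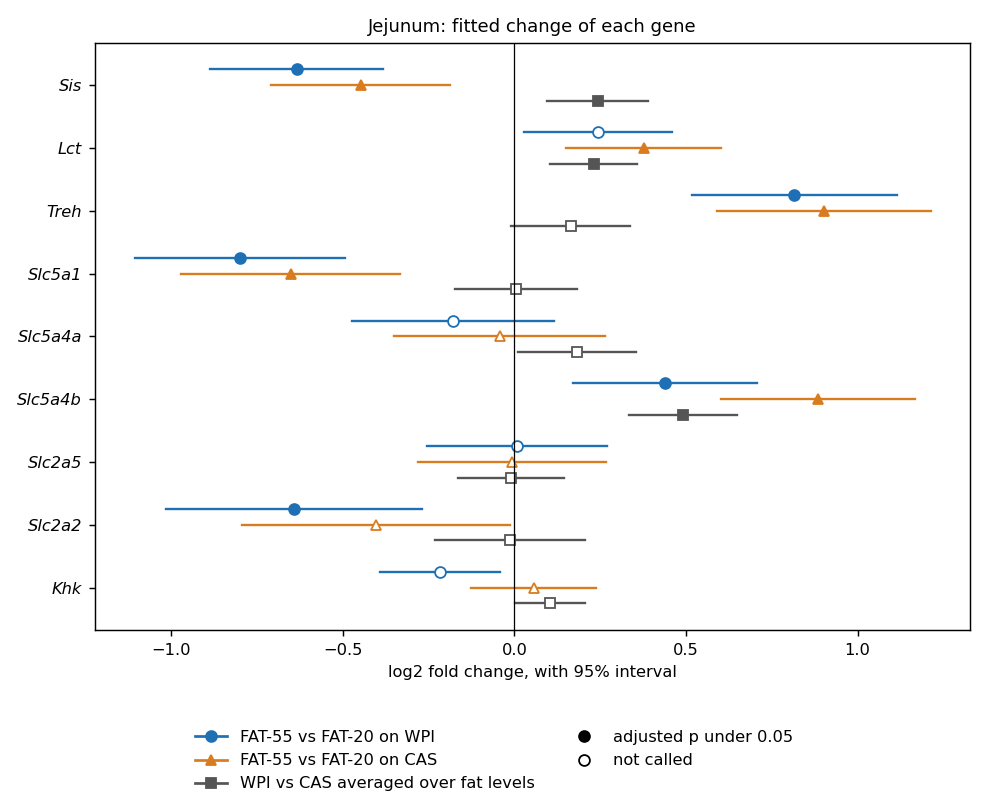
Log2 fold change with its 95% interval for each gene in jejunum, for FAT-55 against FAT-20 on WPI and on CAS and for WPI against CAS averaged over fat; filled points have an adjusted p under 0.05. Slc5a1 and Sis are filled below 0 and Treh and Slc5a4b above 0 on both proteins, and Slc5a4b is the gene farthest from 0 between the proteins at 0.49.

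Part of the change with fat was already called at FAT-40. At FAT-40 against FAT-20, 3 of the 9 genes were called on WPI (Lct, Treh and Sis), where 25.8% of all genes were called, and 3 on CAS (Lct, Treh and Slc5a4b), where 25.1% were. Between FAT-55 and FAT-40 edgeR called 0 of the 9 on WPI (0.653% of all genes called) and 0 on CAS (0.0294%). Before adjustment 3 genes had a p under 0.05 on WPI (Sis, Slc5a1 and Slc2a2) and 1 on CAS (Sis), and DESeq2 also called 0 on either protein.

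Fewer of the 9 genes were called between the proteins than for FAT-55 against FAT-20. The same held over all genes, so this number is not in itself a result. Averaged over the fat levels, Slc5a4b, Sis and Lct were higher on WPI than on CAS, which is 3 of 9 where 15.3% of all genes were called and 6.5% were called higher. Slc5a4b stood 1.41-fold higher (log2 0.49 ± 0.08, adjusted p = 6.8e-06), Sis 1.18-fold higher (0.24 ± 0.08, adjusted p = 0.018) and Lct 1.17-fold higher (0.23 ± 0.07, adjusted p = 0.0079, edgeR). With counts summed by identifier stem, Slc5a4b kept this call (adjusted p = 0.0041), while Sis (adjusted p = 0.21) and Lct (adjusted p = 0.067) lost it, and Sis also lost it with the epithelium score as covariate (adjusted p = 0.054). At FAT-20 all 12 WPI libraries had more Slc5a4b than the CAS median and the level was 1.8-fold higher (log2 0.85 ± 0.14, adjusted p = 3.8e-05). The same difference was 0.22 at FAT-40 (adjusted p = 0.51) and 0.40 at FAT-55 (adjusted p = 0.097).

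At FAT-20 Khk was also called higher on WPI than on CAS (0.28 ± 0.09, adjusted p = 0.046), with 11 of 12 WPI libraries over the median on CAS, which makes 2 of 9 called, both higher on WPI, where 6.23% of all genes were called and 2.66% were called higher. That Khk call ended in 5 alternatives, with adjusted p = 0.061 to 0.18. At FAT-40 edgeR called 0 of 9 (0.571% of all genes called) and at FAT-55 0 of 9 (3.7%), and DESeq2 called 0 in both. Before adjustment Slc5a4b alone had a p under 0.05 at FAT-55 (0.0055) and none had one at FAT-40. The response to FAT-55 or to FAT-40 was not called as different between the proteins for any of the 9 genes by edgeR or DESeq2, with 0% and 0.0118% of all genes called by edgeR. Slc5a4b and Khk had an unadjusted p under 0.05 in both.

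Markers of other cell types in the tissue pieces moved with fat as well. The 10 smooth muscle markers summed to 347 to 1396 CPM at FAT-55 on WPI, against 859 to 4180 CPM at FAT-20 on WPI. On CAS the sums were 387 to 1321 CPM at FAT-55, against 908 to 1685 CPM at FAT-20. All 10 markers fell on WPI and 8 of 10 on CAS, and all 10 were detected in every group. At FAT-40 against FAT-20, all 10 fell on both proteins, to sums of 401 to 1214 CPM on WPI and 476 to 929.6 CPM on CAS. The 7 adipose markers summed to 56.2 to 151 CPM at FAT-55, against 87.5 to 428 CPM at FAT-20 on WPI, and 6 of 7 fell; on CAS they summed to 61.0 to 117 CPM at FAT-55, against 59.9 to 319 CPM at FAT-20, and 5 of 7 fell. Of 10 epithelial markers, 1 rose and 1 fell on WPI at FAT-55, with sums of 15590 to 24180 CPM (median 19840) against 12900 to 25750 CPM (17170) at FAT-20. On CAS 1 rose, with sums of 15760 to 23680 CPM (19210) at FAT-55 against 12910 to 20300 CPM (16020) at FAT-20. At FAT-40, 4 of the 10 rose on WPI, and 1 rose and 1 fell on CAS.

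A fit with the smooth muscle and adipose scores as covariates cannot tell diet from cell content, because the markers behind the scores themselves moved with fat. In it the FAT-55 falls were larger and still called on both proteins. On WPI the log2 changes were −1.07 for Slc5a1 (adjusted p = 0.0057) and −0.80 for Sis (0.012), and on CAS −0.93 (0.0063) and −0.62 (0.032). Slc2a2 was called on both in this fit (−1.17, adjusted p = 0.0084 on WPI; −0.88, adjusted p = 0.031 on CAS). The rises were smaller on the log2 scale. On WPI those of Treh (0.40, adjusted p = 0.3) and Slc5a4b (0.19, adjusted p = 0.72) were no longer called, and on CAS those of Treh (0.61, adjusted p = 0.036) and Slc5a4b (0.66, adjusted p = 0.022) still were. Lct on CAS had a value of 0.15 in this fit (adjusted p = 0.56). At FAT-40 no gene of the 9 kept its call in it. Calls over all genes shrank too in this fit, to 169 higher and 108 lower for FAT-55 on WPI, against 2416 and 2815 without the scores.

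Markers of position along the gut also moved. On WPI 4 of 5 proximal small intestine markers rose at FAT-55, with sums of 3381 to 6458 CPM against 1503 to 6219 CPM at FAT-20. On CAS 1 rose and 1 fell, with sums of 1940 to 6021 CPM at FAT-55 against 1093 to 2872 CPM at FAT-20. Most of these proximal sums came from Fabp1, which averaged 3160 CPM over the jejunum libraries, while the next marker, Gata4, averaged 149 CPM. The sums thus follow mainly that gene and not the list as a whole. Of 4 tested ileum markers, 3 fell on WPI at FAT-55 (median log2 −1.83) and 0 were called on CAS (−0.65), with sums on WPI of 144 to 204 CPM at FAT-55 against 139.8 to 814 CPM at FAT-20. At FAT-20, 2 of the 4 were higher on WPI than on CAS, where the sums were 158 to 349 CPM. Of 4 tested colon markers, 1 rose and 1 fell on WPI at FAT-55, and 2 rose and 2 fell on CAS. Colon sums at FAT-55 were 538 to 743 CPM on WPI and 528 to 824 CPM on CAS, against 627 to 1114 CPM on WPI and 659.5 to 1012 CPM on CAS at FAT-20, and the defining colon marker Car1 averaged 0.0707 CPM over the jejunum libraries, with a highest single value of 4.46 CPM. Their part in the results on Sis, Slc5a1 and the other genes was not tested. Between the proteins, 6 of 6 lymphocyte markers were lower on WPI than on CAS averaged over fat, with sums of 57.0 to 145 CPM on WPI and 77.7 to 523 CPM on CAS. Adipose markers had a median log2 difference of 1.31 (2 of 7 higher on WPI), with sums of 56.2 to 428 CPM on WPI and 54.7 to 319 CPM on CAS. With the smooth muscle and adipose scores as covariates, the averaged protein differences of Slc5a4b, Sis and Lct kept their calls. The part of the lymphocyte markers in them was not tested.

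At FAT-55 other genes of carbohydrate digestion fell or were not called, whereas Treh rose on both proteins and Lct on CAS. Among 5 tested genes of carbohydrate digestion beyond the 9, 0 were higher and 3 lower at FAT-55 on WPI (median log2 −0.25) and 0 and 3 on CAS (−0.26), beside medians of −0.03 and −0.01 over all genes. Of all genes, 16.6% were called lower on WPI and 13.3% on CAS. Mgam, maltase-glucoamylase, averaged 2753 CPM at FAT-55 on WPI, against 5127 CPM at FAT-20, and fell by a log2 change of 0.90 ± 0.15 (adjusted p = 7.9e-06). On CAS Mgam averaged 2884 CPM at FAT-55, against 4547 CPM at FAT-20, a log2 fall by 0.66 (adjusted p = 0.0014, edgeR). Amy1, an amylase of saliva and other tissues, fell by a log2 change of 2.30 on WPI (adjusted p = 3.9e-07) and by 1.90 on CAS (adjusted p = 4.2e-05). Glb1, the lysosomal beta-galactosidase, was higher by log2 0.26 ± 0.03 on WPI than on CAS averaged over fat (adjusted p = 7.5e-10).

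Among 11 other transporters of the Slc2 and Slc5 families, 0 were higher and 5 lower at FAT-55 on WPI (median −0.14), and 1 was higher and 3 lower on CAS (median −0.19). The share called lower over all genes was 16.6% on WPI and 13.3% on CAS. Slc2a4, the insulin-responsive GLUT4 of muscle and fat cells, fell by a log2 change of 1.28 on WPI (adjusted p = 1.5e-05) and by 0.67 on CAS (adjusted p = 0.025, edgeR). Slc2a3, the GLUT3 best known from neurons, fell by 0.81 on WPI (adjusted p = 3.5e-05), and its value on CAS was −0.24 (adjusted p = 0.25). Slc5a9, which encodes SGLT4, was 0.19 higher on WPI than on CAS averaged over fat (adjusted p = 0.00063).

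In the lists of fructose and polyol steps, galactose use and glycolysis, more genes were called higher than lower at FAT-55 against FAT-20. Over all genes, 14.2% were called higher and 16.6% lower on WPI, and 14.4% higher and 13.3% lower on CAS. Of 9 genes of fructose breakdown and the polyol steps, 4 rose and 2 fell at FAT-55 on WPI (median 0.25), and 6 rose and 0 fell on CAS (median 0.25). Sord, sorbitol dehydrogenase, rose by a log2 change of 0.40 on WPI (adjusted p = 0.0085) and 0.56 on CAS (adjusted p = 0.00068), and was 0.39 higher on WPI than on CAS averaged over fat (adjusted p = 5.6e-05). Adh1, an alcohol dehydrogenase of this list, rose by 1.39 ± 0.28 on WPI (adjusted p = 0.00012) and 1.53 ± 0.30 on CAS (adjusted p = 9.6e-05). Tkfc, triokinase, fell on WPI by 0.36 (adjusted p = 0.0046, edgeR).

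Of 8 genes of galactose use, 5 rose and 0 fell on WPI (median 0.25) and 5 rose and 0 fell on CAS (median 0.32). The share called higher over all genes was 14.2% on WPI and 14.4% on CAS. Galm, galactose mutarotase, rose by a log2 change of 0.40 on WPI (adjusted p = 0.00043) and 0.48 on CAS (adjusted p = 8.5e-05), and Pgm1, a phosphoglucomutase, by 0.53 (adjusted p = 1.3e-05) and 0.61 (adjusted p = 4.6e-06). Of 21 genes of glycolysis, 9 rose and 1 fell on WPI (median 0.14) and 10 rose and 1 fell on CAS (median 0.22). Pfkl, the liver form of phosphofructokinase, rose by 0.60 on WPI (adjusted p = 1.7e-05) and 0.80 on CAS (adjusted p = 4.1e-07, edgeR).

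Among 17 brush border genes of other function, 3 rose and 1 fell on WPI, and 3 rose and 0 fell on CAS. Over all genes, 14.2% rose and 16.6% fell on WPI, and 14.4% rose and 13.3% fell on CAS. The counts of the lists in this paragraph are therefore not in themselves a result. Alpi, intestinal alkaline phosphatase, rose by a log2 change of 0.90 on both proteins (adjusted p = 4.8e-06 on WPI and 1.7e-05 on CAS), and Mep1a, a meprin subunit, fell by 0.65 on WPI (adjusted p = 0.0013). Of 10 intestinal transcription factors, 3 rose and 1 fell on WPI and 3 rose and 0 fell on CAS; Hnf4g, a nuclear receptor of enterocytes, rose by 0.53 on WPI (adjusted p = 0.00039) and 0.62 on CAS (adjusted p = 0.00012). Of 11 genes of the carbohydrate response factor and its targets, 2 rose and 1 fell on WPI and 2 rose and 2 fell on CAS. Thrsp, a lipogenic target of that factor, fell by 1.92 on WPI (adjusted p = 1.4e-06) and by 0.80 on CAS (adjusted p = 0.04, edgeR). None of 6 genes of sweet taste sensing and Slc5a1 regulation was called in either.

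The pattern of each gene over the 70 jejunum libraries was set beside those of 14227 other genes by the correlation of log2 CPM, which also picks up shared diet, stem and cell content. Slc5a1 was most like Mgam (r = 0.959, and 0.939 after taking out the diet means), followed by the sodium pump subunit Atp1b1 (0.896). Sis was also most like Mgam (0.863). Slc2a5 was most like Slc2a7 (0.851), a GLUT5 relative that lies 4.8 kb from it on the same strand and whose coding sequence was 66.1% identical to that of Slc2a5. Slc2a7 averaged 70.4, 79.8 and 68.8 CPM on WPI and 75.04, 82.6 and 72.0 CPM on CAS from FAT-20 to FAT-55.

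**Figure D4:**
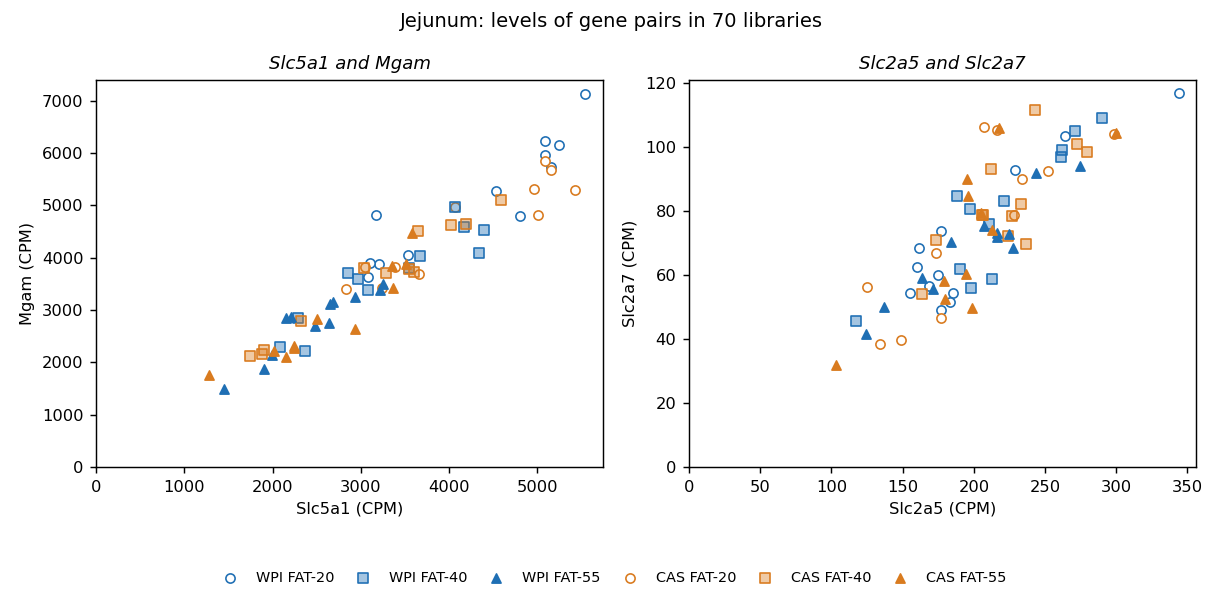
CPM of Slc5a1 against Mgam and of Slc2a5 against Slc2a7 in the 70 jejunum libraries, each point a mouse. Colour marks the protein (blue WPI, orange CAS) and shape the fat level (circles FAT-20, squares FAT-40, triangles FAT-55). The points follow a line in both panels, with correlations of log2 CPM of 0.959 and 0.851.

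The other genes had other companions. Treh was most like Ugdh (0.953), which makes UDP-glucuronate, and Cyp2d26 (0.952). Slc5a4b was most like the monoamine oxidases Maob (0.907) and Maoa (0.898), and Slc5a4a was most like Slc37a4 (0.757), the glucose 6-phosphate carrier. Slc37a4 was also the first for Khk (0.813), ahead of Fbp2 (0.807), a fructose bisphosphatase. Lct was most like Fbln1 (0.914), a matrix protein gene, and Slc2a2 was most like 4933404O12Rik (0.868) and Atp1b1 (0.849).

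In liver, 4 of the 9 genes, namely Sis, Lct, Slc5a4a and Slc5a4b, were at or near the detection limit. Sis had 1 read over the 70 libraries, with 69 at 0, and Slc5a4a had 0 reads in all 70. Lct had 21 reads (52 libraries at 0) and Slc5a4b 18 reads (53 at 0). A count of 0 allows up to 3 reads, which is 0.0733 CPM in the deepest liver library and 0.157 CPM in the shallowest and covers counting error only.

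In the same mice, jejunum exceeded liver in 70 of 70 for Sis, Lct, Treh, Slc5a1, Slc5a4a, Slc5a4b and Slc2a5. Slc5a1 averaged 3340 CPM in jejunum and 1.57 CPM in liver, Treh 578 and 2.53 CPM, and Slc2a5 206 and 10.1 CPM. Slc2a2 and Khk were shared by both organs. Slc2a2 averaged 548 CPM in jejunum and 487 CPM in liver and was higher in jejunum in 47 of 70 mice. Khk averaged 392 CPM in jejunum and 272 CPM in liver and was higher in jejunum in 67 of 70 mice. The TMM scaling was done within each tissue, so CPM of jejunum and liver are not on a common scale. Differences as small as those of Slc2a2 and Khk are therefore uncertain.

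**Figure D5:**
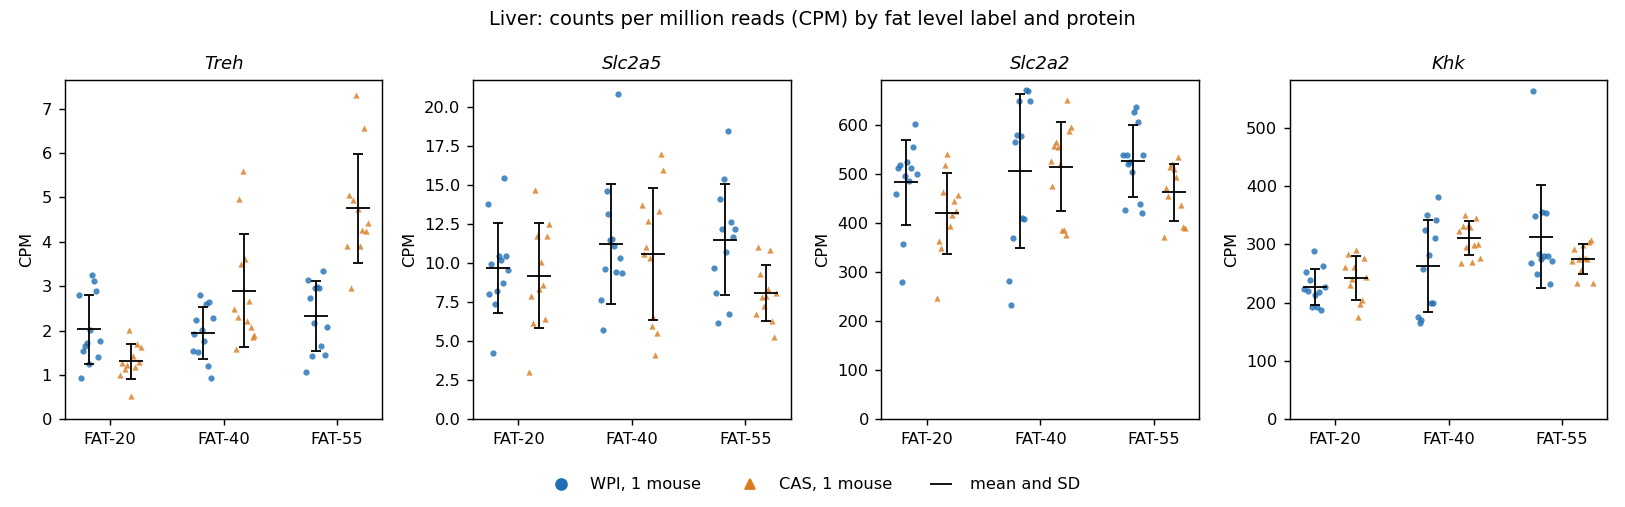
CPM of Treh, Slc2a5, Slc2a2 and Khk in every liver library by fat level (points: blue circles WPI, orange triangles CAS; lines: mean and SD of each group). Treh climbs with fat on CAS, to 2.97 to 7.31 CPM at FAT-55, and stays between 0.92 and 3.35 CPM on WPI.

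Hepatic Treh was low in level, with 367 to 1426 reads per group, and it rose with fat on CAS. Levels on WPI were 0.921 to 3.26 CPM (median 1.74) at FAT-20, 0.942 to 2.79 CPM (1.961) at FAT-40 and 1.08 to 3.35 CPM (2.45) at FAT-55. On CAS it had 0.524 to 2.02 CPM (1.27) at FAT-20, 1.57 to 5.59 CPM (2.39) at FAT-40 and 2.97 to 7.31 CPM (4.41) at FAT-55. The CAS groups at FAT-55 and FAT-20 did not overlap, whereas the WPI groups did over most of their range.

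On CAS hepatic Treh was 3.61-fold higher at FAT-55 than at FAT-20 (log2 1.85 ± 0.21, adjusted p = 2.4e-10), which was 1 of 5 tested genes called where 43.3% of all 15051 genes were. It was higher by log2 1.14 ± 0.21 at FAT-40 than at FAT-20 (adjusted p = 2.4e-05, 30.2% of all genes called) and by log2 0.72 ± 0.20 at FAT-55 than at FAT-40 (adjusted p = 0.023, 3.6%). On WPI its FAT-55 log2 change was 0.20 (adjusted p = 0.49, edgeR; 26.6% of all genes called). The response to FAT-55 was lower on WPI than on CAS by a log2 difference of −1.65 ± 0.29 (adjusted p = 0.00046, 6.82% of all genes called), and that to FAT-40 by −1.18 ± 0.29 (adjusted p = 0.024, 1.49%). With counts summed by identifier stem these differences were −1.62 (adjusted p = 0.057) and −1.15 (adjusted p = 0.47), and the FAT-55 against FAT-40 change on CAS was 0.70 (adjusted p = 0.18).

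At FAT-55 all 12 WPI livers had less Treh than the CAS median (log2 −1.03 ± 0.20, adjusted p = 0.00025, 14.5% of all genes called). At FAT-40 the WPI against CAS log2 difference was −0.56 (adjusted p = 0.064, 8.21% of all genes called) and at FAT-20 it was 0.62 (adjusted p = 0.17, 0.512%). Averaged over fat it was −0.33 ± 0.12 (adjusted p = 0.049, edgeR; 14.7% of all genes called), and it lost its call with no filter on low counts (adjusted p = 0.089), with counts summed by stem (0.11) and with stem as a random effect (0.12).

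Lists of markers for other cells also moved in these livers, but their sums do not show that such cells increased. Over the livers, Krt8 (177 CPM on average), Krt18 (119 CPM) and Fabp2 (98.0 CPM) held most of the epithelium sum. Plin4 (48.0 CPM) and Cidec (19.8 CPM) held most of the adipose sum. The 10 intestinal epithelium markers summed to 513 to 725 CPM on CAS at FAT-55, against 355 to 513 CPM on CAS at FAT-20; 2 of the 8 tested rose and 2 fell, and the defining marker Krt20 averaged 0.0190 CPM and Vil1 0.14 CPM. The 7 adipose markers summed to 92.4 to 333 CPM on CAS at FAT-55, against 27.4 to 78.0 CPM at FAT-20, and 3 of the 3 tested rose, while Adipoq, Plin1, Lep and Retn each averaged under 0.1 CPM over the livers, with a highest single value of 0.4 CPM (Adipoq). On WPI at FAT-55 these adipose sums were 19.5 to 111 CPM. Of 8 hepatocyte markers 5 fell on CAS at FAT-55, with sums of 65470 to 81510 CPM against 74690 to 106100 CPM at FAT-20. The part of these marker changes in the result on Treh was not tested. In the 70 livers Treh was most like Ifi27l2b (r = 0.851), Ttc39a (0.841) and Acad12 (0.81), of 12351 genes compared.

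Khk in liver rose with fat in part of the comparisons. In WPI mice it had 188 to 289 CPM (median 222) at FAT-20, 165 to 381 CPM (269.8) at FAT-40 and 232 to 563 CPM (280.3) at FAT-55. The CAS libraries had 175 to 290.6 CPM (244) at FAT-20, 268 to 349.9 CPM (312) at FAT-40 and 233 to 307 CPM (275) at FAT-55. It was higher at FAT-55 than at FAT-20 on WPI (log2 0.47 ± 0.11, adjusted p = 0.001), with all 12 libraries above the FAT-20 median. The WPI FAT-55 replicate 2 was the highest library, and without it the log2 ratio of the means was 0.36. Stems accounted for 62.2% of the within-diet spread of hepatic Khk. On CAS Khk and Treh were the 2 of 5 genes called at FAT-40 against FAT-20, Khk with 0.35 ± 0.11 (adjusted p = 0.013, edgeR), and its FAT-55 value on CAS was not called. With counts summed by identifier stem both Khk calls were lost, with adjusted p = 0.061 for FAT-55 on WPI (0.45) and 0.13 for FAT-40 on CAS (0.35).

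Slc2a2 in liver averaged 483, 505.5 and 527 CPM on WPI and 419.8, 515 and 463 CPM on CAS from FAT-20 to FAT-55, and no comparison called it. Its nearest was FAT-40 against FAT-20 on CAS (0.30, adjusted p = 0.067, edgeR). Hepatic Slc2a2 was, of the 5 tested genes, the one in which mice of a stem were most alike, since stems accounted for 79.2% of its within-diet spread against a median of 37.4% over all genes. Its pattern was most like those of Riok2 (r = 0.862), Per2 (0.858), a gene of the circadian clock, and Upp2 (0.857). Slc2a5 averaged 9.71, 11.2 and 11.5 CPM on WPI and 9.21, 10.6 and 8.09 CPM on CAS, and was not called either, nor was Slc5a1. On WPI edgeR and DESeq2 called 0 of the 5 tested genes for FAT-40 against FAT-20 (6.54% of all genes called by edgeR) and for FAT-55 against FAT-40 (2.29%); before adjustment 0 had a p under 0.05 in the first and 2, Slc5a1 and Khk, in the other.

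Of 8 genes of galactose use in liver, 4 rose and 0 fell at FAT-55 on WPI (median 0.29), where 26.6% of all genes were called, and 4 rose and 0 fell on CAS (median 0.32), where 43.3% were. Galk2, which phosphorylates galactose derivatives, rose by a log2 change of 0.50 on WPI (adjusted p = 1.1e-06) and 0.64 on CAS (adjusted p = 3.1e-09). Of 9 genes of fructose breakdown 4 rose on WPI and 0 fell (median 0.27), and 2 rose and 1 fell on CAS (median 0.01). Aldh1b1, a mitochondrial aldehyde dehydrogenase, rose by 0.40 on WPI (adjusted p = 0.017) and 1.35 ± 0.14 on CAS (adjusted p = 1.2e-11, edgeR).

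Of 21 glycolysis genes in liver 4 rose and 3 fell on WPI, and 11 rose and 3 fell on CAS (median 0.24). Over all genes, 26.6% were called in either direction on WPI and 43.3% on CAS. The counts of the lists in this paragraph are therefore not in themselves a result. Pklr, the pyruvate kinase of liver, rose on both (log2 0.85, adjusted p = 0.00097 on WPI; 0.56, adjusted p = 0.026 on CAS). Hk2, a hexokinase of muscle and fat cells, rose by 1.46 ± 0.19 on CAS (adjusted p = 1e-08), and its value on WPI was 0.26 (adjusted p = 0.31). Of 7 genes of glucose release 0 rose and 2 fell on WPI, and 1 rose and 4 fell on CAS. Pck1, the cytosolic gluconeogenic carboxykinase, fell by 0.60 on WPI (adjusted p = 0.0026) and by 0.69 on CAS (adjusted p = 0.00046, edgeR).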

How the data were processed

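Jejunum and liver RNA had been extracted with RNeasy kits, per the labels' protocols. The deposited tables held raw gene counts that the authors had made; cutadapt, FastQC, Trim Galore 0.61, STAR, DESeq2 1.24.0 and GRCm38 are named in the submitters' processing notes. The annotation, the STAR version and the strand setting are not given in the sources used here. Rows that name no gene were left out of library sizes and tests. In jejunum and liver they held 5.23% and 5.20% of reads as ambiguous, 8.00% and 7.71% as multimapping, 6.34% and 5.60% as without a feature and 3.45% and 5.30% as unmapped. A symbol was found for 55450 of 55536 gene IDs.

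From these counts, edgeR 4.0.16 (R 4.3.3) was run in each tissue with 1 coefficient per diet for all 6 diets, TMM scaling and filterByExpr (minimum count 10, minimum total 15). This left 16992 genes in jejunum and 15051 in liver. Adjusted p-values came from its quasi-likelihood test. The other settings tried were counts summed by identifier stem, stem as a random effect (limma 3.58.1), marker scores as covariates, no filter, median-of-ratios scaling, DESeq2 1.42.0 and leaving out libraries. The scripts were tested on simulated data. Gene positions are those of GENCODE M21, and promoters those of RefSeq. The genes and lists were chosen with earlier results of these data known. Beyond the 9 genes, the text names genes from the 2 per list that ranked first by adjusted p for fat, or for protein, and for each gene its nearest in correlation among the first 3. Replicate numbers follow accession order and only name a library. Tkfc, Slc2a7 and the marker genes named singly were picked after their values were seen. Hypothalamus libraries were not used here.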

Additional observations from a re-analysis of the deposited data

Results flagged for a closer look

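The response of hepatic Treh to fat was called as different between the protein sources by a test of the difference itself. From FAT-20 to FAT-55 the log2 response on WPI minus that on CAS was −1.65 ± 0.29 (adjusted p = 0.00046, edgeR's quasi-likelihood test), and from FAT-20 to FAT-40 it was −1.18 ± 0.29 (adjusted p = 0.024). Both calls were lost with counts summed by identifier stem (adjusted p = 0.057 and 0.47), and the FAT-40 call also with stem as a random effect (adjusted p = 0.27). Both differences rest on the same FAT-20 libraries. Treh had a median of 2.45 CPM on WPI and 4.41 CPM on CAS at FAT-55, so that it was detected at a low level only.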

How the results depend on the processing

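Of the gene-level values recomputed under other settings, 1121 kept their direction and their side of the threshold, 33 lost a call, 10 gained one and 0 reversed. In jejunum, the number of the 9 genes called changed as follows. Between WPI and CAS averaged over fat, 3 became 1 with counts summed by identifier stem (Lct and Sis lost), and Sis alone was lost with the epithelium score (adjusted p = 0.054). At FAT-20, 2 became 4 with DESeq2 (Lct and Sis gained) and 1 with no filter, with stem sums, with stem as a random effect or with the epithelium score (Khk lost each time). The FAT-20 number became 3 with the adipose and smooth muscle scores (Lct gained). Without WPI FAT-20 replicates 1 and 9 it stayed at 2 (Lct gained, Khk lost). For FAT-40 against FAT-20 on WPI, 3 became 1 with stem sums and 0 with scores for adipose tissue and smooth muscle as covariates, and on CAS 3 became 0 with those scores. On WPI the number became 2 with no filter or without the 2 replicates (Sis lost), and 4 with the epithelium score (Slc5a1 gained). On CAS it became 4 with DESeq2, with the epithelium score or without the replicates (Slc5a1 gained each time). For FAT-55 against FAT-20, 5 became 3 with the adipose and smooth muscle scores on WPI and 3 with stem sums on CAS. On WPI the number became 4 with stem sums (Slc5a4b lost) and 6 with the epithelium score (Khk gained). On CAS it stayed at 5 with the adipose and smooth muscle scores (Lct lost, Slc2a2 gained). In liver, 1 became 0 for WPI against CAS averaged over fat with no filter, stem sums or the random effect. For liver FAT-55 against FAT-20 on WPI, FAT-55 against FAT-40 on CAS and the FAT-55 response on WPI against CAS, 1 became 0 with stem sums, as did the FAT-40 response with stem sums or the random effect. For FAT-40 against FAT-20 on CAS in liver, 2 became 1 with stem sums. The causes were not tested, but stem sums hold fewer samples (24 stems for 70 mice). Over all jejunum genes, FAT-55 against FAT-20 on CAS gave 1757 higher and 1626 lower with stem sums, against 2447 and 2264. On WPI FAT-40 against FAT-20 gave 28 higher and 16 lower with the scores for adipose tissue and muscle, against 2163 and 2215. Leaving out single libraries, run as a log2 ratio of means for the comparisons of 2 diets, moved no called value of the 9 genes by over 1.5 times; it was not run for the differences averaged over fat or for the differences between responses. No paired analysis was possible because the diet groups hold different mice and replicate numbers were given in accession order only. In liver 4 of the 9 genes had too few reads to test, with 21000799 to 41024101 reads a library, against 17502377 to 23808051 in jejunum, where all 9 were tested.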
